A study of Mus musculus with 4 samples.

Results

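The receptors for insulin, leptin and adiponectin, and the proteins that carry or restrain their signals, were examined in endometriotic lesions of mice, in which endometrium-like tissue grows at sites beyond the uterus. The 10 genes were taken by symbol: the receptor genes Insr, Lepr, Adipor1 and Adipor2, the adaptor genes Irs1 and Irs2, the inhibitor gene Socs3, the transcription factor gene Foxo1 and the glucose transporter genes Slc2a1 and Slc2a4. They were measured by 26 of the 34945 probe sets with 1 gene symbol, and all 10 were among the 12797 genes tested out of 18193 on the array. Lesion RNA from mice on a high-fat diet (2 arrays) was compared with lesion RNA from mice on a casein diet (2 arrays), the diet that the labels give as control. The title calls the mice an immunocompetent model, and the labels give no strain, age, diet duration, source of the implanted tissue or number of animals per array, so p-values measure only the spread between these samples, which may be technical.

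Insulin binds a receptor tyrosine kinase, encoded by Insr, which phosphorylates the adaptors IRS1 and IRS2. These recruit phosphoinositide 3-kinase and activate AKT, which drives glucose uptake and keeps the transcription factor FOXO1 out of the nucleus. Leptin signals through its receptor to JAK2 and STAT3, and STAT3 induces SOCS3, which blocks the leptin receptor and also restrains insulin signalling. Adiponectin, a hormone made by fat cells, acts through ADIPOR1 and ADIPOR2 on AMP-activated kinase and PPARα. In the uterus FOXO1 is known as a factor of human stromal decidualisation and of the mouse epithelium at implantation, and GLUT1, the product of Slc2a1, supplies glucose to the decidualising stroma.

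The start regions of the adaptor genes are shown because they share letters with each other, beside 2 members whose start regions carry a motif of a factor in the same pathway. The sequences are from RefSeq (GRCm38.p6), read 5′ to 3′ on the gene's own strand, and 8 of the 10 members had an entry. Capitals mark matches, on either strand, to CACGTG (an E-box), CAAAACA or its complement TGTTTTG (a core of insulin response elements), GTAAACA or its complement TGTTTAC (the FoxO core), and TTCNNNGAA (a STAT element).
Irs1, chr1:82291519-82291578, minus strand: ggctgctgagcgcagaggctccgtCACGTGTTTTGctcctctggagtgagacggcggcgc
Irs2, chr8:11008938-11008997, minus strand: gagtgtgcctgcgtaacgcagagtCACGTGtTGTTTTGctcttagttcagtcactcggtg
Irs4, chrX:141725336-141725395, minus strand: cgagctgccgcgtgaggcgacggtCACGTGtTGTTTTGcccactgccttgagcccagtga
Adipor2, chr6:119388871-119388930, minus strand: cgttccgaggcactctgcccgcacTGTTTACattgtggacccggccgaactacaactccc
Socs3, chr11:117969484-117969543, minus strand: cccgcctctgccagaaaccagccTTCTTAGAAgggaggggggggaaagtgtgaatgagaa

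In Irs1 the E-box and the insulin response core shared 2 bases, and in Irs2 they lay 1 base apart. A pair that overlapped or lay at most 1 base apart was found in the 250 bases before the start of 7 of 27025 genes. These were Irs1, Irs2, the related adaptor gene Irs4, Klf11, Pcbp1, Pyroxd1 and 1700019P21Rik. This search was made after the sequences had been seen, and Irs4, which is no member, is shown because of it. Of 32851 start regions of this length, 6.02% held the E-box, 5.56% the insulin response core, 7.02% the STAT element and 3.17% the FoxO core. Among the members the FoxO core was found in Adipor2 and the STAT element in Socs3. The insulin response core was found in Irs1, Irs2 and Lepr. A match describes letters and shows no binding.

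None of the 10 genes changed with diet at a false discovery rate of 0.05 (0 of 10 by limma with Benjamini-Hochberg adjustment, lowest adjusted p among them 0.863), and 0% of all 12797 genes were called. At an unadjusted p under 0.05 there were likewise 0 members, where 4.97% of all genes lay (2.24% with the larger mean on the high-fat diet and 2.73% with the smaller). Mean values were larger on the high-fat diet for 6 members and smaller for 4. The median difference of the members was 0.01 on the log2 scale, and that of all genes tested was -0.01. Taken without sign, the median difference was larger for the members (0.20) than for all genes tested (0.12). Both high-fat diet arrays lay above both casein diet arrays for 3 members, Insr, Irs2 and Adipor1, and no member had the opposite pattern. That is 30% of members, against 36.0% of all genes with non-overlapping diets in either direction (16.6% in the direction of these 3), a share near the background. For 2 members, Irs2 and Adipor1, the difference between diets exceeded the gap between arrays within each diet, as it did for 21.5% of all genes. The 95% interval of the difference lay within 1 log2 unit either way, that is within a 2-fold change, for 7 of the 10 members. The same held for 83.1% of all genes tested. For Lepr, Slc2a1 and Slc2a4 the interval reached beyond 1 log2 unit.

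**Figure D1:**
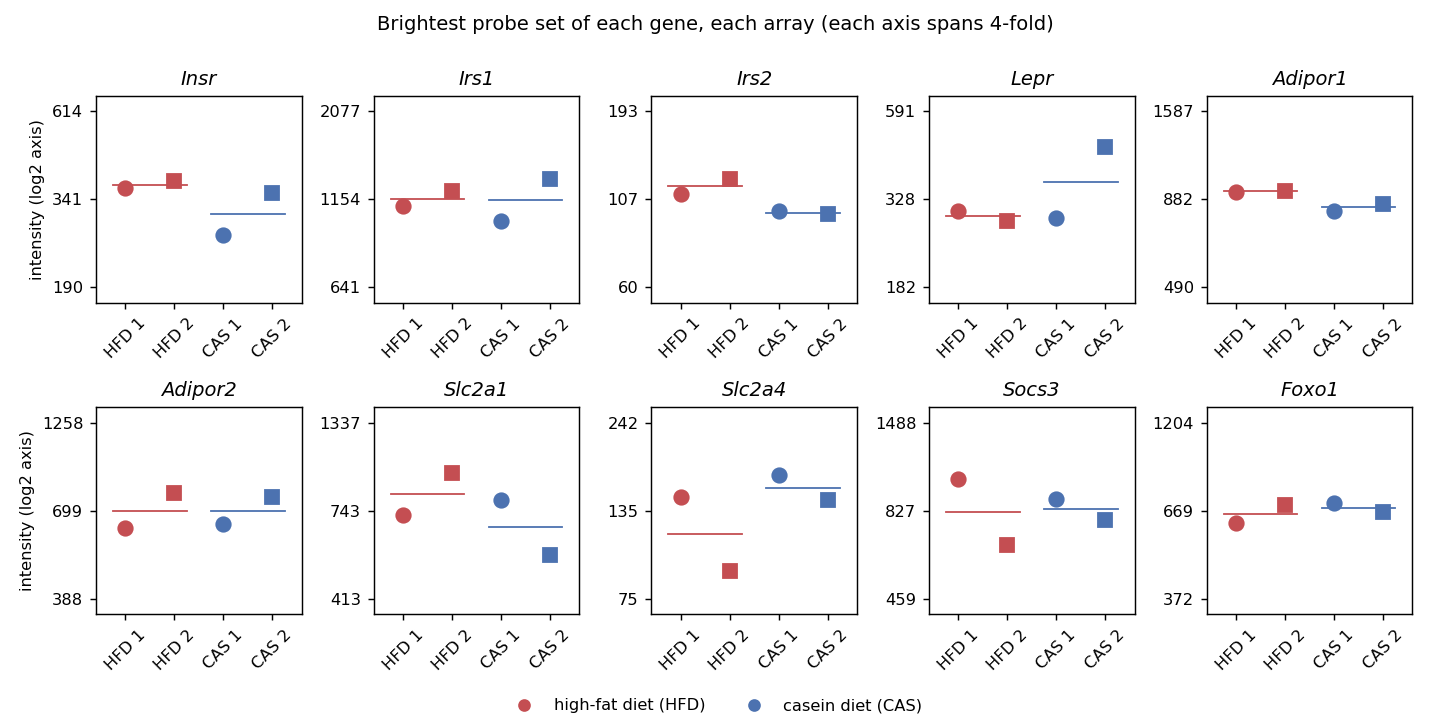
Intensity (log2 axis spanning 4-fold) of the brightest probe set of each of the 10 genes on each array, with red for the high-fat diet (HFD), blue for the casein diet (CAS), circles for replicate 1, squares for replicate 2 and bars for diet means on the log scale. The diets separate for Insr, Irs2 and Adipor1, and they overlap for the other 7 genes.

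The arrays differed in the levels of cell type markers. Overall medians were alike, between 55.1 and 56.5. Endometrial stroma markers were present on all arrays, with 12 of 12 tested. They summed to 22145 and 21035 on the high-fat diet, against 18665 and 21950 on the casein diet. Their mean log2 deviation from the 4-array mean was 0.16 and 0.11 on the high-fat diet, against -0.41 and 0.14 on the casein diet. Endometrial epithelium markers (13 of 13 tested) summed to 13738 and 17522 on the high-fat diet, against 33147 and 26151 on the casein diet. Means were smaller on the high-fat diet for 11 of the 13, and 48.6% of all genes had larger means. The 2 with larger means, Msx1 and Cldn3, were lowest in casein diet replicate 1 (91.8 and 338.8). There the keratin genes Krt8 (10009.5) and Krt19 (5236) were highest. Ltf, also listed for neutrophils, was highest in casein diet replicate 2 (9294). Whether endometrial epithelium itself differed was not tested. Markers of gastric mucosa (10 of 12 on the array) summed to 457.5 and 480.0 on the high-fat diet, against 72114 and 10491 on the casein diet. Skeletal muscle markers (17 of 17 on the array) summed to 37060 in high-fat diet replicate 1 and 1141 in replicate 2, against 1030 and 1281 on the casein diet. Smooth muscle markers (10 of 10 tested) summed to 19784 and 17101 on the high-fat diet, against 26321.5 and 31423 on the casein diet. All 10 had smaller means on the high-fat diet, 9 without overlap and 8 at an unadjusted p under 0.05, and 0 passed limma's adjusted test. Of all genes, 19.3% were lower without overlap and 2.73% were lower at an unadjusted limma p under 0.05. The part of these cell types in the members' values was not tested. No marker was listed at 0. In such bulk samples fewer cells of a type and less RNA per cell cannot be told apart.

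Insr, the insulin receptor gene, had intensities of 367.5 and 386.6 on the high-fat diet, against 268.7 and 355.9 on the casein diet. Casein diet replicate 1 stood low, while the other arrays lay close together. The log2 difference of high-fat minus casein diet was 0.29 (SE 0.17, 95% interval -0.21 to 0.78, limma adjusted p = 0.863), and it was 0.08 when casein diet replicate 1 was left out. That array also had the largest sums of gastric, intestinal epithelium (4570) and mesothelium (6118) markers. Most of its mesothelium sum was Krt19 (5236), also listed for endometrial epithelium. The sums of endometrial stroma (18665) and endothelium (2276) markers in that array were the smallest of the arrays. The part of any of these cell types in the low Insr value was not tested. The other 2 probe sets of Insr were dim, between 9.88 and 19.1, below the intensity of 33.9 at which genes entered the test.

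Irs1, the gene of the adaptor through which insulin and IGF receptors signal in many tissues, had intensities of 1101 and 1217 on the high-fat diet, against 1001 and 1320 on the casein diet. The casein diet arrays bracketed both high-fat diet arrays, and the log2 difference was 0.01 (SE 0.18, interval -0.49 to 0.51). Irs2, the second widely expressed adaptor gene, had intensities of 111.3 and 122.9 on the high-fat diet, against 98.9 and 97.4 on the casein diet. The diets did not overlap, and the casein diet arrays were nearly equal. With a log2 difference of 0.25 (SE 0.10, interval -0.04 to 0.55), Irs2 had the smallest p of the members in the gene fit and did not pass the threshold (limma adjusted p = 0.863). It kept its sign without each array in turn, from 0.18 to 0.33. Each adaptor gene had 1 probe set, so no second probe set could be compared. Irs4 was dim, at 20.2 and 11.7 on the high-fat diet against 14.7 and 48.7 on the casein diet, and was not tested.

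Lepr, the leptin receptor gene, had intensities of 302.8 and 283.7 on the high-fat diet, against 290.0 and 465.2 on the casein diet. Casein diet replicate 2 stood apart, and casein diet replicate 1 lay between the high-fat diet arrays. The log2 difference of -0.33 (SE 0.26, interval -1.08 to 0.42) was 0.02 without casein diet replicate 2 and was -0.67 without casein diet replicate 1. The second probe set gave 111.8 and 134.0 on the high-fat diet, against 112.3 and 195.3 on the casein diet, and the third gave 55.1 and 65.0 on the high-fat diet, against 61.1 and 81.9 on the casein diet. Casein diet replicate 2 was thus the highest array in each of the 3 Lepr probe sets above the filter. The remaining one was dim and flat, between 20.4 and 21.5.

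Adipor1, an adiponectin receptor gene linked to AMP-activated kinase, had intensities of 927.6 and 933.8 on the high-fat diet, against 818.4 and 852.7 on the casein diet. Arrays of the same diet agreed closely, and the diets did not overlap. The log2 difference was 0.16 (SE 0.09, interval -0.10 to 0.41, limma adjusted p = 0.863), a fold of 1.11, and it ranged from 0.13 to 0.19 without each array in turn. The second Adipor1 probe set, at 626.6 and 573.6 on the high-fat diet against 528.3 and 528.1 on the casein diet, also separated the diets. The third, at 89.5 and 98.7 on the high-fat diet against 79.2 and 101.3 on the casein diet, did not. Adipor2, the receptor gene linked to PPARα, had intensities of 622.4 and 786.4 on the high-fat diet, against 637.7 and 765.4 on the casein diet. Replicate 2 was the higher array within each diet, and the log2 difference was 0.00 (0.00195, SE 0.18, interval -0.50 to 0.51). Its second probe set read 272.8 and 315.7 on the high-fat diet, against 289.8 and 379.3 on the casein diet, a log2 difference of -0.18 (SE 0.18). High-fat diet replicate 1 was the lowest array in both.

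**Figure D2:**
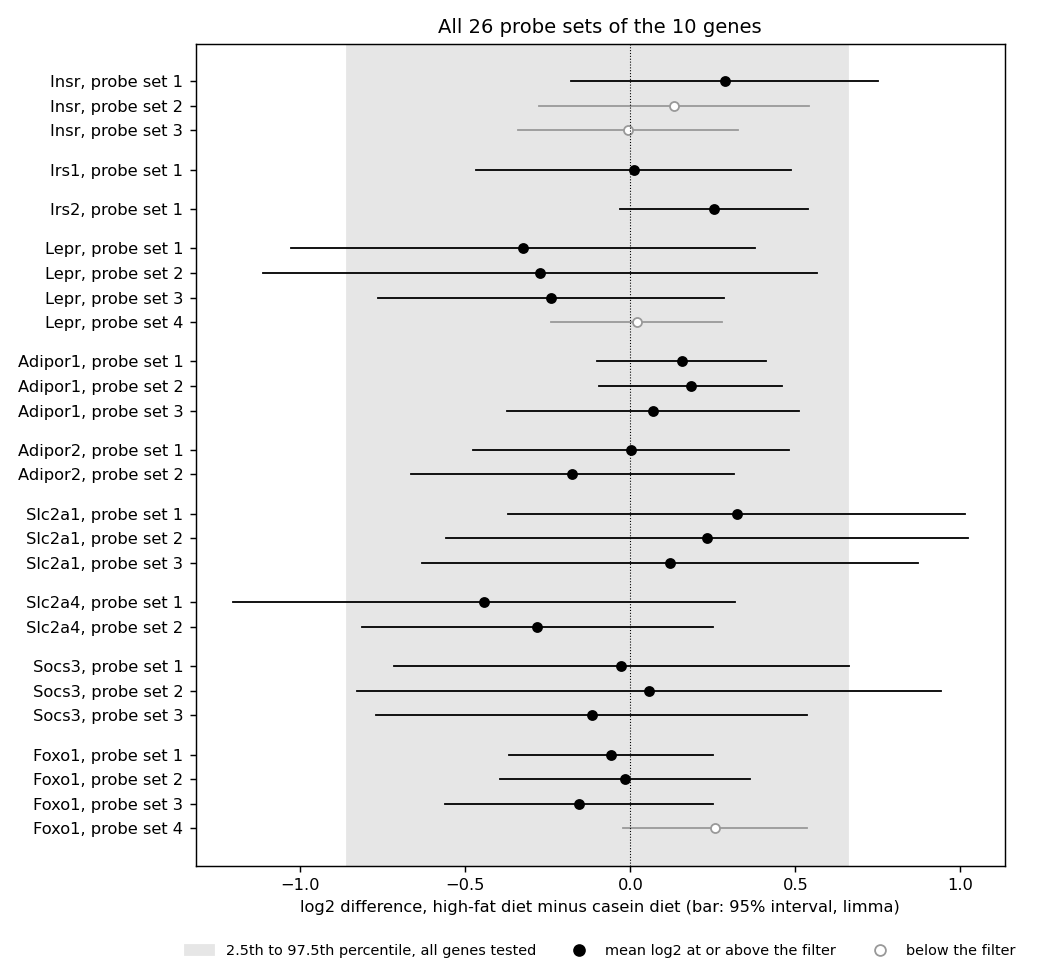
Log2 difference, high-fat diet minus casein diet, of all 26 probe sets with 95% limma intervals, ordered within each gene by brightness. Filled points lie at or above the intensity filter, open points below it, and the grey band holds the central 95% of differences of all genes tested (-0.86 to 0.66). Every interval includes 0 and every point lies within the band.

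Over all probe sets, 5 of the 26 separated the diets and all 5 were higher on the high-fat diet. That is 19.2%, against 35.7% of all probe sets in either direction and 17.4% in this one. At an unadjusted p under 0.05 there were 0 of 26, where 5.02% of all probe sets lay, and 0% of all probe sets passed limma's test after adjustment. The smallest unadjusted p, 0.0636 (limma adjusted p = 0.851), belonged to the dimmest Foxo1 probe set, with intensities of 13.2 and 13.8 on the high-fat diet against 11.8 and 10.9 on the casein diet. It was 1 of 4 member probe sets below the filter.

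Slc2a1, which encodes the basal glucose transporter GLUT1, had intensities of 720.1 and 957.6 on the high-fat diet, against 799.9 and 551.8 on the casein diet. High-fat diet replicate 2 was the highest array and casein diet replicate 2 the lowest, and the diets overlapped. The log2 difference was 0.32 (SE 0.26, interval -0.42 to 1.06), and it was 0.05 without casein diet replicate 2. All 3 probe sets placed the arrays in the same order. The second read 551.9 and 797.1 on the high-fat diet against 691.1 and 462.1 on the casein diet, and the third read 190.1 and 282.8 on the high-fat diet against 251.1 and 181.1 on the casein diet. The spread between arrays of one diet was therefore seen by each probe set of Slc2a1.

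Slc2a4 encodes GLUT4, the transporter that insulin moves to the surface of skeletal muscle and fat cells. Its intensities were 147.5 and 90.1 on the high-fat diet, against 171.0 and 143.9 on the casein diet. High-fat diet replicate 2 was low, and high-fat diet replicate 1 lay between the casein diet arrays. The log2 difference of -0.44 (SE 0.29, interval -1.26 to 0.37) had the largest size of the 10, and it was -0.09 without high-fat diet replicate 2. The second probe set read 45.1 and 32.9 on the high-fat diet, against 44.0 and 49.8 on the casein diet, with the same low array.

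Markers of muscle and fat, the tissues known for GLUT4, differed between the same arrays. Ttn, the titin gene of muscle sarcomeres, had intensities of 4053 and 43.6 on the high-fat diet, against 19.2 and 16.7 on the casein diet. Myh1, a fast myosin gene, had 4311 and 30.8 on the high-fat diet, against 7.07 and 11.2 on the casein diet. In high-fat diet replicate 1, the array with these muscle genes, the brightest Slc2a4 probe set (147.5) lay between the casein diet arrays (171.0 and 143.9). The second Slc2a4 probe set (45.1) also lay between them (44.0 and 49.8). Adipocyte markers (12 of 16 on the array, 8 tested) summed to 5516 and 7623 on the high-fat diet, against 3983 and 6911 on the casein diet. Adipoq, the adiponectin gene of fat cells, had 33.1 and 348.1 on the high-fat diet, against 106.9 and 91.4 on the casein diet. Fabp4, a fatty acid-binding protein gene of fat cells and capillary endothelium, had 1292 and 2026 on the high-fat diet, against 489.6 and 696.9 on the casein diet. High-fat diet replicate 2 had the highest values of Adipoq, Fabp4 and the adipocyte sum and the lowest of both Slc2a4 probe sets. Among the other tested adipocyte markers, Retn (345.9) and Plin4 (132.7) were also highest in that array. Lpl (5057) and Dgat2 (566.5) were highest in casein diet replicate 2, Lipe (77.7) in casein diet replicate 1 and Pnpla2 (150.3) in high-fat diet replicate 1. The part of muscle and of fat in the Slc2a4 values was not tested.

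**Figure D3:**
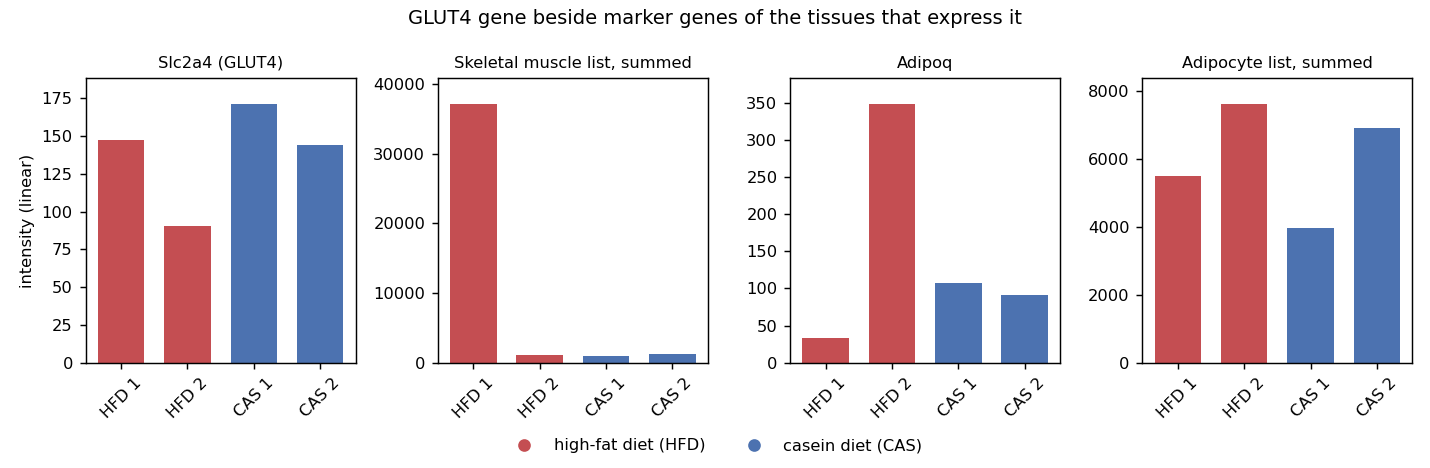
Linear intensity on each array of Slc2a4 (brightest probe set), of the summed skeletal muscle markers, of Adipoq and of the summed adipocyte markers, with red bars for the high-fat diet (HFD) and blue bars for the casein diet (CAS). Muscle markers peak in HFD 1 (37060) and Adipoq in HFD 2 (348.1), while Slc2a4 is highest in CAS 1 (171.0) and lowest in HFD 2 (90.1).

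Socs3, the feedback inhibitor gene of leptin and cytokine receptors, had intensities of 1023 and 655.2 on the high-fat diet, against 894.7 and 778.5 on the casein diet. The high-fat diet arrays were the highest and the lowest of the 4, with both casein diet arrays between them. The log2 difference was -0.03 (SE 0.26, interval -0.76 to 0.71), and it was 0.29 when high-fat diet replicate 2 was left out and -0.35 when replicate 1 was. The second probe set read 554.6 and 315.8 on the high-fat diet against 456.5 and 354.9 on the casein diet, and the third read 312.9 and 206.8 on the high-fat diet against 296.7 and 256.7 on the casein diet. All 3 Socs3 probe sets gave the same order of arrays, as for Slc2a1. Of 7 members with at least 2 probe sets above the filter, these were the 2 with a single order. Inflammatory cell markers were uneven between the same arrays. The neutrophil gene S100a8 had 3477 and 687.7 on the high-fat diet, against 464.5 and 849.4 on the casein diet. Macrophage markers (10 of 12 on the array) summed to 31870 and 25383 on the high-fat diet, against 27112 and 26491 on the casein diet. Neutrophil markers (10 of 12) summed to 9562 and 5950 on the high-fat diet, against 5161 and 11366 on the casein diet. Much of that sum was Ltf, also listed for endometrial epithelium, at 3940 and 4300 on the high-fat diet, against 3833 and 9294 on the casein diet. The mean log2 deviation of the 7 tested neutrophil markers was 0.73 and -0.31 on the high-fat diet, against -0.52 and 0.10 on the casein diet. The part of these cells in the Socs3 values was not tested.

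**Figure D4:**
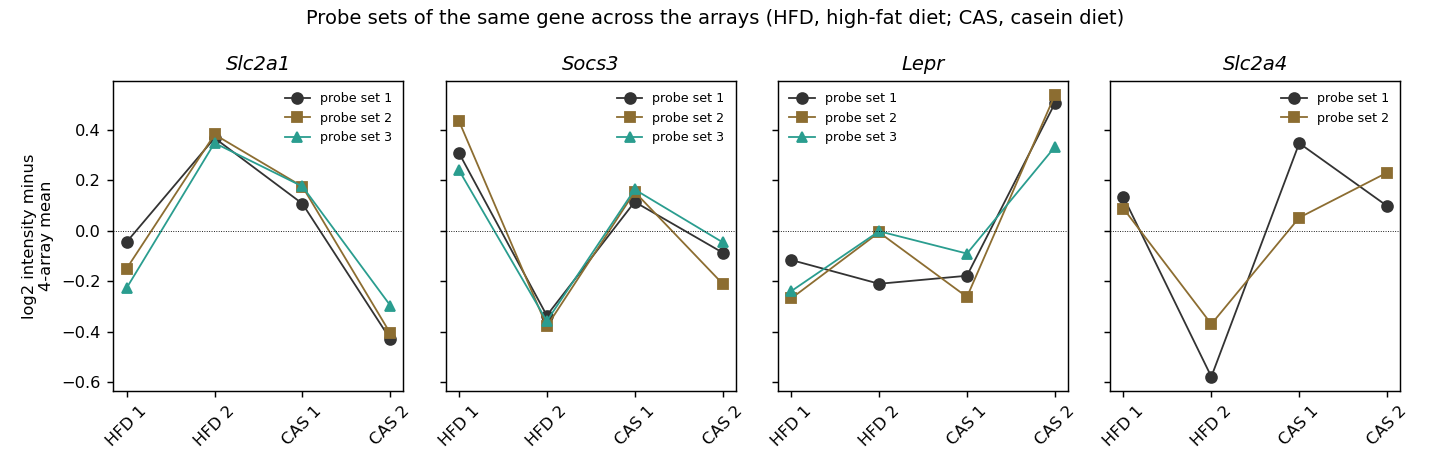
Log2 intensity minus the 4-array mean for each probe set above the filter of Slc2a1, Socs3, Lepr and Slc2a4, with the arrays of the high-fat diet (HFD) left and of the casein diet (CAS) right, and lines that join the values of a probe set. The probe sets of Slc2a1 and of Socs3 run in one order each, Lepr is highest in CAS 2 in all 3, and Slc2a4 is lowest in HFD 2 in both.

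Foxo1 varied least of the 10 members, over 0.19 log2 units, where the median range of all genes tested was 0.32. Adipor1 (0.19) also lay below that median range, and every other member lay above it. Its intensities were 616.7 and 695.9 on the high-fat diet, against 701.4 and 664.4 on the casein diet. The diets overlapped, with a log2 difference of -0.06 (SE 0.11, interval -0.38 to 0.26). The second probe set read 326.1 and 398.3 on the high-fat diet, against 374.4 and 355.4 on the casein diet. The third read 145.4 and 182.2 on the high-fat diet, against 186.5 and 176.1 on the casein diet. High-fat diet replicate 1 was the lowest array in all 3 Foxo1 probe sets above the filter. The largest range among the members was 0.92 for Slc2a4, and 0 of the 10 spanned over 1 log2 unit, as 10.4% of all genes did. No genes of like pattern are named, because that was done only for members spanning over 1 log2 unit.

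The wider pathways were described through lists that leave the members out. Some genes stand in more than 1 list. No gene of any list passed limma's test over all genes, and 0 to 4 genes a list had an unadjusted p under 0.05, so counts and values are given. For comparison, 48.6% of all genes had larger means on the high-fat diet. Of the insulin cascade list, 17 of 26 tested genes had larger means on the high-fat diet and 9 smaller, with a median of 0.05. Beside steps from phosphoinositide 3-kinase to mTOR, that list holds Igf1r, Grb2, Shc1, Sos1, Cbl, Foxo3, Foxo4, Tbc1d1 and Tbc1d4. Diets did not overlap for 9 of the 26 (34.6%, against 36.0% of all genes). Without each array in turn 15 to 18 had larger means, with medians from 0.01 to 0.10. Eif4ebp1, the translation repressor that mTOR inactivates, had 531.8 and 540.1 on the high-fat diet, against 436.2 and 411.3 on the casein diet (log2 difference 0.34, SE 0.09). The FoxO genes Foxo4 and Foxo3 differed by 0.26 (SE 0.11) and 0.35 (SE 0.19). Among inhibitors of the insulin pathway 6 of 14 genes had larger means and 8 smaller, with a median of -0.02, which ran from -0.07 to 0.05 when 1 array was left out. Grb14, an adaptor that inhibits the insulin receptor kinase, had 61.6 and 65.1 on the high-fat diet, against 79.6 and 79.5 on the casein diet (-0.33, SE 0.09). The suppressor genes Socs1 and Socs6 differed by -0.59 (SE 0.29) and 0.18 (SE 0.11).

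Of the targets of FoxO factors 14 of 18 tested genes had larger means on the high-fat diet, with a median of 0.25. The diets did not overlap for 10 of 18 (55.6%, against 36.0% of all genes), 9 of them higher on the high-fat diet. Without each array in turn, 13 to 15 of the 18 had larger means, with medians from 0.14 to 0.28. Pdk4, the kinase that shuts off pyruvate dehydrogenase in fasting, had 245.8 and 82.2 on the high-fat diet, against 46.3 and 32.2 on the casein diet (1.88, SE 0.61). It was highest in the array with skeletal muscle genes, and muscle is a tissue known to express Pdk4. The part of muscle in this value was not tested. Bcl2l11, which encodes the death protein BIM, had 1011 and 963.5 on the high-fat diet, against 793.8 and 839.3 on the casein diet (0.27, SE 0.10). Klf15, a transcription factor gene of gluconeogenesis, had 134.8 and 206.0 on the high-fat diet, against 99.1 and 127.2 on the casein diet (0.57, SE 0.27).

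On the leptin side, 11 of 25 tested genes of the receptor and JAK-STAT relay had larger means on the high-fat diet and 14 smaller, with a median of -0.02. Diets did not overlap for 11 of 25 (44%, against 36.0% of all genes). Stat3, the factor that leptin activates, had 1171 and 1095 on the high-fat diet, against 1386 and 1395 on the casein diet (log2 difference -0.30, SE 0.10). Socs2, a suppressor gene best known from growth hormone signalling, had 1203 and 1132 on the high-fat diet, against 1574 and 1470 on the casein diet (-0.38, SE 0.10). Lifr, the receptor gene for leukaemia inhibitory factor, had 778.5 and 628.1 on the high-fat diet, against 409.8 and 408.8 on the casein diet (0.77, SE 0.14, limma adjusted p = 0.856). STAT3 targets were divided, with 9 of 19 larger and 10 smaller, and a median of -0.05 that ran from -0.16 to 0.02 when 1 array was left out. The acute-phase genes Saa3 and Hp differed by 2.46 (SE 0.19) and 1.31 (SE 0.31), and the siderophore-binding lipocalin gene Lcn2 by -0.91 (SE 0.16). Lep itself was dim, at 9.16 and 21.6 on the high-fat diet against 9.60 and 11.1 on the casein diet, and it was not tested.

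On the adiponectin side, the adiponectin and AMP-activated kinase list had 25 tested genes. Of these, 13 had larger means on the high-fat diet and 12 smaller, with a median of 0.01. Beside genes of the relay the list counts Paqr4 (-0.93), Paqr5 (-0.78), Paqr6 (0.01), Paqr7 (-0.15) and Paqr8 (-0.84), so its counts and medians are not those of the relay alone. Without high-fat diet replicate 2, 9 of the 25 had larger means, with a median of -0.06. Cdh13, the T-cadherin gene whose product binds adiponectin on endothelium, had 161.7 and 139.1 on the high-fat diet, against 95.9 and 118.0 on the casein diet (log2 difference 0.50, SE 0.16). Endothelial markers lay in the same direction: all 12 tested had larger means on the high-fat diet, with a median of 0.43, and their sums were 3587 and 3810 on the high-fat diet against 2276 and 2913 on the casein diet. The part of endothelium in the Cdh13 value was not tested. Prkaa2, a catalytic subunit gene of AMP-activated kinase, differed by 0.50 (SE 0.17), and Ppara by 0.24 (SE 0.10). Of other adipokine genes 10 of 14 had larger means, with a median of 0.14. The median ran from 0.02 without casein diet replicate 2 to 0.29 without casein diet replicate 1. The 14 include Adipoq, which the adiponectin list also counts, and the receptor genes Aplnr and Cmklr1. In this list the apelin receptor gene Aplnr differed by 1.09 (SE 0.31), the retinol-binding protein gene Rbp4 by 1.22 (SE 0.44) and the chemerin gene Rarres2 by 0.62 (SE 0.32).

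Other glucose transporter genes had larger means on the high-fat diet in 6 of 8 cases, with a median of 0.20. Slc2a3, which encodes the high-affinity transporter GLUT3, had 1257 and 1875 on the high-fat diet, against 362.7 and 1191 on the casein diet (log2 difference 1.22, SE 0.66). Casein diet replicate 1 stood low here. Without that array 4 of the 8 transporter genes had larger means, with a median of 0.03. The median was 0.04 without the second high-fat diet array and 0.47 without the second casein diet array. Slc2a13, a myo-inositol transporter gene that is counted among the 8, and Slc2a10 differed by 0.59 (SE 0.26) and -0.52 (SE 0.36). Glycolysis genes had larger means in 6 of 15 cases, with a median of -0.02. The count was 1 of 15 when high-fat diet replicate 1, the array with skeletal muscle genes, was left out. It was 9 of 15 when high-fat diet replicate 2 or casein diet replicate 1 was left out. The part of muscle in these counts was not tested. The mean log2 deviation of the glycolysis genes was 0.17 and -0.20 in the high-fat diet arrays, against 0.06 and -0.03 in the casein diet arrays. Among glycolysis genes, Aldoc, an aldolase gene, had 188.7 and 148.0 on the high-fat diet, against 292.0 and 358.8 on the casein diet (-0.95, SE 0.19). The hexokinase gene Hk1 and the phosphofructokinase gene Pfkp differed by -0.29 (SE 0.18) and -0.36 (SE 0.21).

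**Figure D5:**
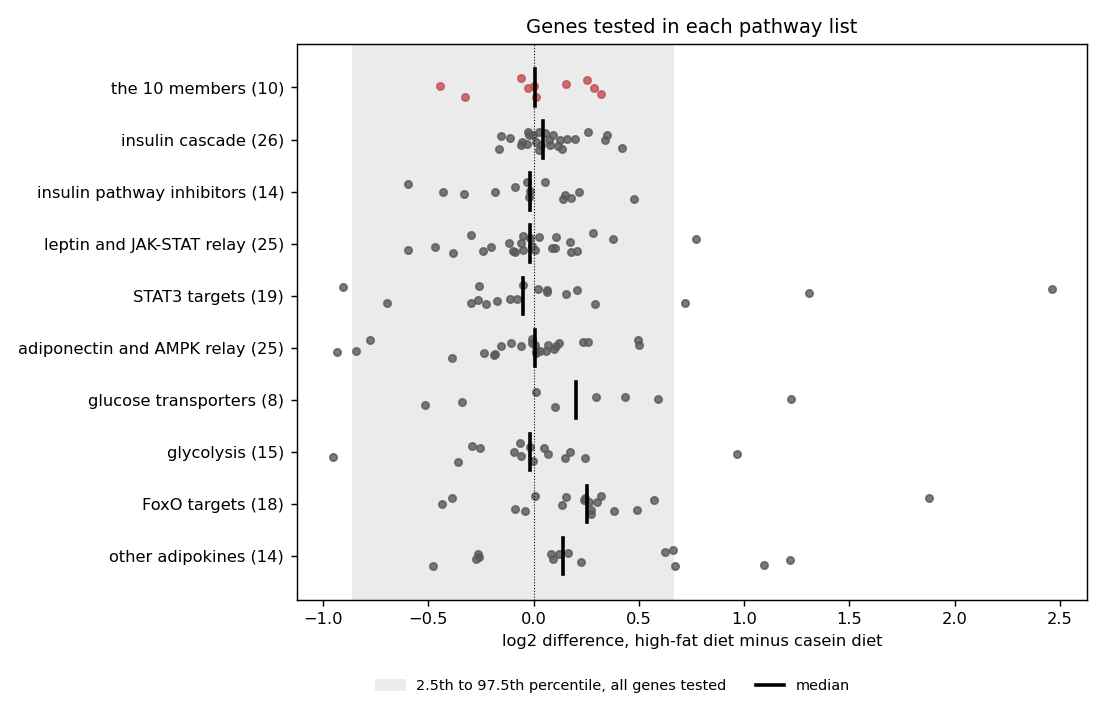
Log2 difference, high-fat diet minus casein diet, of each tested gene (points) of the 10 members and of 9 pathway lists, with the number of genes in brackets, the median as a bar and the central 95% of all genes tested in grey. All members lie inside the grey band, and the list medians run from -0.05 (STAT3 targets) to 0.25 (FoxO targets).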

How the data were processed

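Lesion RNA (0.1 µg) was labelled and hybridised to Affymetrix arrays, per the labels' protocols. The deposited intensity of each probe set is on a linear scale, from its values, with nearly equal medians over the arrays. GCOS and RMA are named in the submitters' processing notes, with roles, versions and order not given in the sources used here. No detection calls or scan dates were used, and the number of arrays limits the precision. Values scaled to equal medians hide a difference common to most genes.

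From the deposited intensities log2 was taken with no pseudocount. Probe sets were named by the platform annotation, and those with 1 symbol were used (34945 of 45101, with 932 of several symbols, 9160 of none and 64 controls left out). For each gene the probe set with the highest mean log2 was kept. Genes whose mean reached the 40th percentile of probe sets without controls (intensity 33.9) were tested with limma 3.58.1 in R 4.3.3, two-sided, with Benjamini-Hochberg adjustment over 12797 genes (3.80 total degrees of freedom). All 26 member probe sets were fitted among 34945 without the filter. Gene values in the text come from the gene fit, those of further probe sets from the probe set fit. With 2 arrays a diet the smallest exact permutation p is 0.333, so none is given.

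The members and lists were chosen with earlier results of these data known. Of each pathway list the 3 genes with the smallest p are named. Of each marker list used up to 2 with the widest range over arrays are named, plus Lep and Adipoq. Named beyond that rule are the other tested adipocyte markers, Msx1, Cldn3 and Ltf, and genes given to show what a list holds. Same-numbered arrays did not deviate together (r = -0.02 across genes). Start regions of 250 bases were taken from RefSeq, and Insr and Slc2a4 had no entry. Figures were drawn with matplotlib 3.10.9.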

Additional observations from a re-analysis of the deposited data

How the results depend on the processing

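With 2 arrays a diet, single values rest on each array. Other settings were median centring, quantile normalisation, the replicate block, a filter at the 60th percentile or none and a pseudocount of 16. Array weights, another variance prior and the mean of all probe sets were also used. At an unadjusted limma p under 0.05 there were 0 member genes in each. Of all genes there were from 491 of 9939 tested with the 60th percentile filter to 884 of 18193 with no filter. Each of these settings called 0 genes by limma, of the members and of all. Labels do not say that a number pairs arrays. The count over all genes was 0 to 17 when 1 array was left out. The 17 came without casein diet replicate 2, which leaves a lone casein diet array assumed to vary like the others. None of them was a member. Of the members, Slc2a4 differed by -0.80 on the log2 scale without high-fat diet replicate 1. Lepr differed by -0.67 without casein diet replicate 1, and Insr by 0.49 without casein diet replicate 2. Members near 0 changed sign: Irs1 (-0.00047) and Adipor2 (-0.0080) under median centring, and Adipor2 (-0.087) and Foxo1 (0.0062) as the mean of all probe sets. Without each array in turn the log2 differences ran from -0.19 to 0.21 for Irs1, -0.17 to 0.17 for Adipor2, -0.35 to 0.29 for Socs3, -0.15 to 0.028 for Foxo1 and -0.67 to 0.015 for Lepr. Those of Insr, Irs2, Adipor1, Slc2a1 and Slc2a4 kept their sign, from 0.08 to 0.49, 0.18 to 0.33, 0.13 to 0.19, 0.05 to 0.59 and -0.80 to -0.09. The list counts without each array were chosen after seeing the data.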
